A study of Mus musculus with 12 samples.

Results

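The 10 acyl-CoA synthetases described here were grouped by the chain length of the acids they activate. The short-chain enzymes were Acss1, Acss2 and Acss3, the medium-chain enzymes were Acsm3, Acsm5 and Acsf2, and the long-chain enzymes were Acsl1, Acsl3, Acsl5 and Acsl6. They were chosen by gene symbol, and each of the 10 matched 1 of the 26921 genes counted. Among these enzymes the medium-chain gene Acsm5 was the one that differed between genotypes after adjustment over all genes tested. In cmGch1 KO hearts it stood at 33.6% of the WT level, while Acsf2, which made up most of the medium-chain message, did not pass the test. The most abundant short-chain and long-chain enzymes, Acss1 and Acsl1, were at 82.9% and 90.3% of WT, and neither passed.

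The tissue was left ventricle at 16 weeks of age, sequenced as 6 WT and 6 cmGch1 KO libraries with 19921398 to 37917806 counts each. WT mice were Gch1 flox/flox, and cmGch1 KO mice were Gch1 flox/flox α-MHC-Cre+/−. All animals therefore carried the floxed allele, the controls in this comparison carried no Cre, and an effect of Cre itself cannot be told apart from that of the deletion. The α-MHC promoter drives Cre in cardiomyocytes, the unit of the study was a single animal with littermate controls, and Gch1 encodes GTP cyclohydrolase I, which is required to make tetrahydrobiopterin. Gch1 was lower in each cmGch1 KO library than in any WT library, with 9.27, 10.8 and 12.1 cpm (counts scaled to library size) as the lowest, median and highest WT value and 3.92, 5.56 and 6.32 cpm in cmGch1 KO (log2 fold change −0.96 ± 0.11 SE, FDR 6.88e-04). The deletion is confined by design to the exons of the active site and to cardiomyocytes, so reads from the other exons and from other cells of the tissue remain in this count.

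Acyl-CoA synthetases join a fatty acid to coenzyme A at the cost of ATP, which traps the acid in the cell and makes it a substrate for oxidation or for lipid synthesis. The families differ in the chain lengths they prefer and in where they lie: ACSS enzymes act on acetate and propionate, ACSM enzymes lie in the mitochondrial matrix, and ACSL enzymes are bound to membranes. The heart draws most of its energy from long-chain acids, for which ACSL1 is the main activating enzyme.

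For 9 of the 10 genes, all but Acss3, the RefSeq table for GRCm38.p6 held a window from 250 bases before to 50 bases after an annotated start, in 12 windows in all. The upstream sequences of 4 of them are shown, up to the first annotated exon base inside the window. For Acsm5 the window lies within the annotated gene, since another of its annotated transcripts starts earlier, at 119519463. Acsm5 is the gene that fell, Acsm3 is its neighbour in the same gene cluster with hardly any counts, Acsl1 is the most abundant long-chain gene, and Acsl6 is the long-chain gene with the largest difference. Capitals mark matches to a set of fixed motifs, searched on both strands.
Acsm5, chr7:119526015-119526207, + strand: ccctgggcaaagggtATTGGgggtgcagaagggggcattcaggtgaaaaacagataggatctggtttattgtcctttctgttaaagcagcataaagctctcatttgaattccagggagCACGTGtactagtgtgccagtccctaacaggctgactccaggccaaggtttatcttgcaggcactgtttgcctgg
Acsm3, chr7:119760673-119760922, + strand: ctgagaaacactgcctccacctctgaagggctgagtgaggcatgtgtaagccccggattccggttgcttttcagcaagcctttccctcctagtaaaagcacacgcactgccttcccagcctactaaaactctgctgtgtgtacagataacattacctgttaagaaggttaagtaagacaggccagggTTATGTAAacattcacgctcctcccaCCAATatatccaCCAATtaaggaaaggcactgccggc
Acsl1, chr8:46470787-46471036, + strand: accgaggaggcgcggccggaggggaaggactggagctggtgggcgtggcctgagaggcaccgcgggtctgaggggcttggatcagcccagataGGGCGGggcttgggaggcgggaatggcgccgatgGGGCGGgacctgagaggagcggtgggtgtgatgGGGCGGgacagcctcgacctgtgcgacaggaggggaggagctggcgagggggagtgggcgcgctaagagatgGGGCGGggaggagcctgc
Acsl6, chr11:54303574-54303797, + strand: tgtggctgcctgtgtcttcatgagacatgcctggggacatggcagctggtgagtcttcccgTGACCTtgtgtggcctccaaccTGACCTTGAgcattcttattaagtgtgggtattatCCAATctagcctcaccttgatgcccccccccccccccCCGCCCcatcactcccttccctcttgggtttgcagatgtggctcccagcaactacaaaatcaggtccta
The TATA box was searched as TATAAA. The CCAAT box was searched by the letters of its name, and the GC box as GGGCGG. For the E-box the palindrome CACGTG was used, and for the D-box, bound by PAR bZIP factors, TTATGTAA. Nuclear receptors were represented by the motif AGGTCA. The oestrogen-related receptor (ERR) element TCAAGGTCA and the DR1 element AGGTCANAGGTCA, a pair of such motifs 1 base apart, both contain it, so their matches overlap. In the Acsm5 window there was 1 CCAAT box, read on the other strand, whose first base lay 235 bases before the start, and 1 E-box at 132 bases before it. Among all 32851 windows of this length, 37.4% held a CCAAT box and 7.15% an E-box. The Acsm3 window had 2 CCAAT boxes and a D-box, a motif found in 0.938% of windows. Acsl1 had 4 GC boxes upstream of its start, a motif held by 35.7% of windows, and its upstream sequence was 72.0% G and C against 49.7% for Acsm5. Acsl6 was the member with matches to AGGTCA, which 16.3% of windows held, and 1 of these was part of the ERR element, found in 0.423% of windows. A match describes letters in the window and is not evidence of binding.

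To ask which of these genes differed with genotype, counts were tested with edgeR's quasi-likelihood test over the 11225 genes that had over 3 cpm in at least 6 libraries. Of the 10 enzymes 8 were tested, and Acss3 and Acsm3 were too low. One of the 8, Acsm5, was lower in cmGch1 KO at an FDR under 0.05, beside 0.445% of all tested genes that were called lower. None of the 8 was called higher, beside 0.677% of all tested genes, and the Wald test of DESeq2 and limma on the deposited normalized values called none higher either. At an unadjusted p under 0.05 none of the 8 was higher, beside 7.01% of all tested genes, but in some other settings 1 or 2 were. Acsf2 reached that level without the high-Xist libraries described below, with a covariate for sex-linked expression, and without cmGch1 KO replicate 3. Acsl5 did so with 1 surrogate variable in the fit, without WT replicate 1, and without cmGch1 KO replicate 4. Both did with scaling by library size alone, which put 13.2% of all genes there. Before adjustment 3 of the 8 had a p under 0.05 and lower counts (Acsm5, Acss1 and Acsl6), beside 4.51% of all tested genes, and without the high-Xist libraries 2 had (Acsm5 and Acsl6), beside 2.63%. The signs were even, with 4 lower and 4 higher, and the median log2 fold change of the 8 was −0.07, beside −0.01 over all genes tested. Acsm5 passed the filter through its WT libraries, all 6 of which exceeded 3 cpm against 0 of the cmGch1 KO libraries, so a difference was a condition of its inclusion. Without any filter on low values its log2 fold change was −1.59 (FDR 1.26e-04). With the 2 cmGch1 KO libraries described next left out, it was again the 1 member called.

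**Figure D1:**
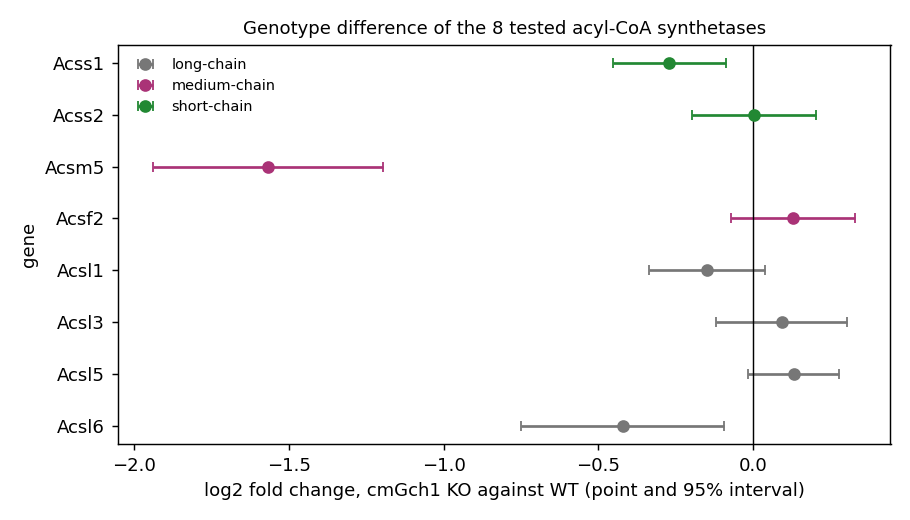
Genotype difference as log2 fold change, cmGch1 KO minus WT (horizontal axis), for the 8 tested acyl-CoA synthetases (vertical axis), with points for the estimate, bars for the 95% interval and colours for the chain-length class. The interval of Acsm5 runs from −1.94 to −1.20, well below those of the other enzymes. Those of Acss1 (−0.45 to −0.09) and Acsl6 (−0.75 to −0.09) also lie below 0, though neither gene passed after adjustment over all genes. The remaining intervals span 0.

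A pair of cmGch1 KO libraries stood apart from the rest. Replicates 2 and 3 of cmGch1 KO had 86.7 and 99.1 cpm of Xist, the RNA expressed from the inactive X chromosome, and no count of Uty, Kdm5d, Ddx3y or Eif2s3y, all on the Y chromosome. The other 10 libraries, all 6 of WT among them, had at most 0.234 cpm of Xist and between 167 and 192 cpm summed over those Y-linked genes. The sample labels gave no sex. The methods described sex-matched mice and, with exceptions stated, the use of both sexes. By these genes alone the pair looks female and the other 10 libraries male, which the labels cannot check. These 2 libraries were also the shallowest, and mitochondrial transcripts took 14.9% and 16.1% of their counts against 18.3% to 22.9% elsewhere. WT had no library of this kind, so values without the pair are given where they moved.

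Among the medium-chain enzymes, ACSM proteins activate medium-chain acids and the shorter butyrate in the mitochondrial matrix. Acsm5 lies on chromosome 7 at 119519463 to 119545551 (GRCm38, plus strand), and its WT libraries held 5.55, 8.55, 7.59, 6.45, 6.79 and 4.66 cpm from replicate 1 to replicate 6. The cmGch1 KO libraries held 2.70, 1.62, 1.68, 2.76, 2.38 and 2.15 cpm. The highest cmGch1 KO value lay below the lowest WT value, so the groups did not overlap. This held for 0.802% of all tested genes in this direction and 1.87% in either. With no cmGch1 KO library over 3 cpm, the filter admitted Acsm5 only because all 6 WT libraries exceeded it. The separation was therefore a condition of its inclusion and is not support for a difference. Mean levels were 6.60 ± 1.39 cpm for WT and 2.21 ± 0.491 cpm for cmGch1 KO (SD, n = 6 each), from 102 to 295 counts per WT library and 35 to 92 per cmGch1 KO library. The log2 fold change was −1.57 ± 0.17 SE (95% interval −1.94 to −1.20, FDR 6.47e-04), and the two-sided exact permutation test gave p = 0.00216, the smallest that 924 splits can give. By the size of its fall Acsm5 ranked 2 among the 11225 genes tested, and by its p-value it ranked 4. The permutation p follows from the same separation, and the ranks are among genes that passed the filter.

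The 2 high-Xist libraries had the lowest Acsm5 values of all, 1.62 and 1.68 cpm, and the other 4 cmGch1 KO libraries ranged from 2.15 to 2.76 cpm. Without the pair the log2 fold change of Acsm5 was −1.40 ± 0.17 SE and its FDR 0.00502. Adding a covariate for sex-linked expression gave −1.43 (FDR 0.00244). It was called lower with each of the 12 libraries left out in turn, between −1.65 and −1.48. Those fits kept the genes tested in the full data, since the filter would otherwise have removed Acsm5 whenever a WT library was left out. The deposited normalized values, in which low counts are compressed, gave a smaller difference of −0.86 that was also called by limma.

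Acsf2, the other tested medium-chain gene, encodes a mitochondrial synthetase of the wider family and lies on chromosome 11 at 94557102 to 94601871 (minus strand). Its lowest, median and highest values were 37.5, 41.9 and 44.9 cpm in WT and 36.1, 46.0 and 55.8 cpm in cmGch1 KO. The groups overlapped, and the log2 fold change of 0.13 ± 0.09 SE did not pass (95% interval −0.07 to 0.33, FDR 0.69). The high-Xist pair held the lowest cmGch1 KO values, 40.7 and 36.1 cpm, against 44.6 to 55.8 cpm in the other 4. Without the pair the log2 fold change of Acsf2 was 0.24 (FDR 0.455), with an unadjusted p of 0.0131 from edgeR.

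Acsm3, also of the ACSM family, lies 215371 bases beyond Acsm5 on chromosome 7, at 119760923 to 119787513 (plus strand). It had 0 to 8 counts per library, with 0 counts in 2 WT and 3 cmGch1 KO libraries. Taking a count of 0 to allow up to 3 counts, the level in those libraries was at most 0.107 to 0.138 cpm, which covers counting error only. No genotype difference in Acsm3 could be measured at this depth. Of its exon bases 39.7% are shared with Eri2, a gene on the opposite strand that had about 1.97 cpm in WT, and the strand setting of the counting was not given in the sources used here.

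**Figure D2:**
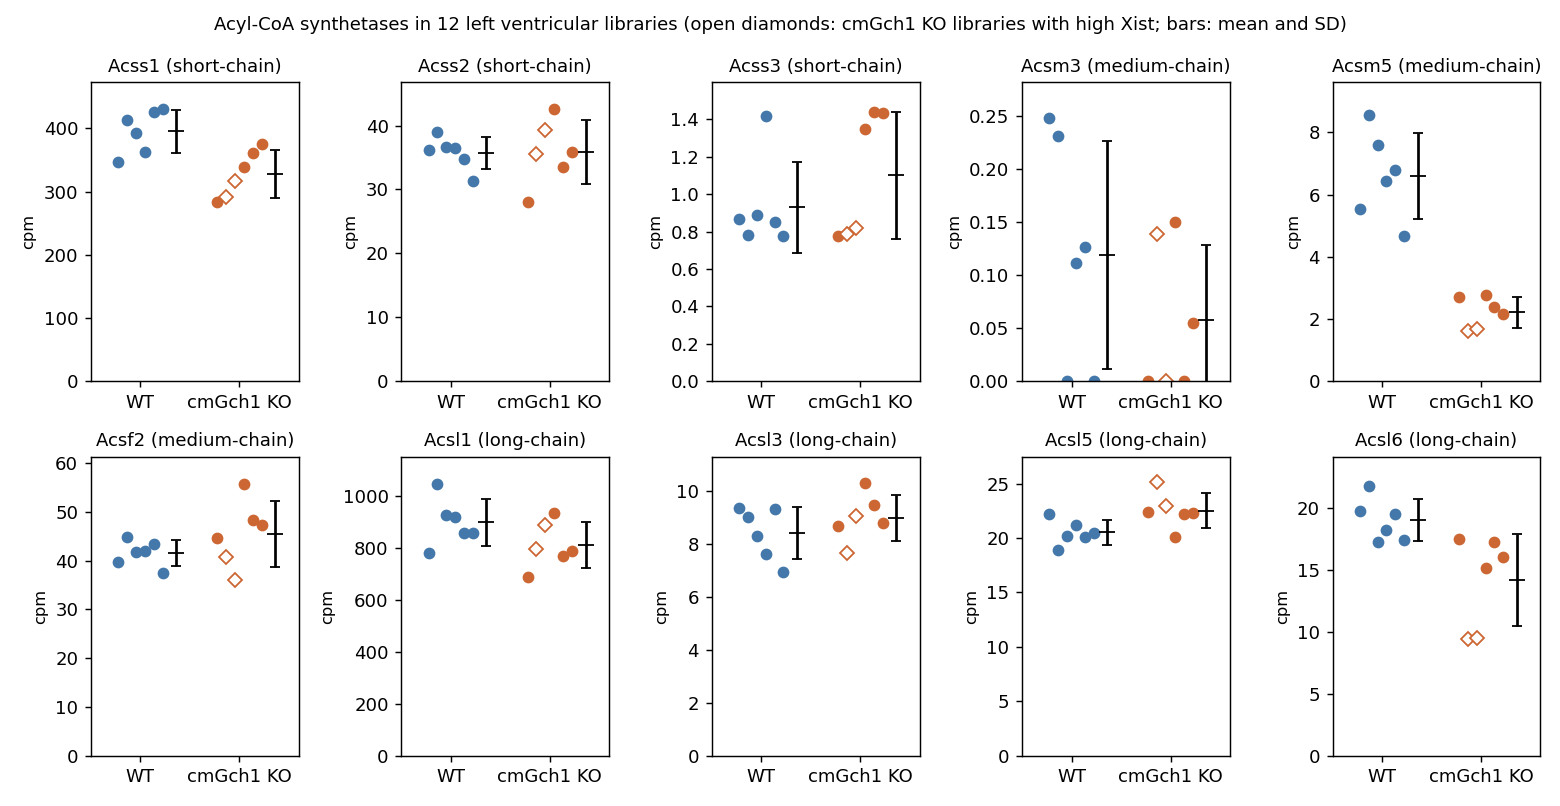
Level in cpm (vertical axes, each starting at 0) of the 10 enzymes in the 6 WT libraries (blue) and 6 cmGch1 KO libraries (orange), 1 point per library, with the mean and SD beside each group and open diamonds for the 2 cmGch1 KO libraries with high Xist. Acsm5 is the one panel of the 10 in which the groups do not overlap, and in the Acsl6 panel the 2 diamonds, at 9.44 and 9.55 cpm, lie below the other 10 points.

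The medium-chain message as a whole had overlapping sums in the genotypes. Levels were compared between genes per length, as cpm per kilobase of annotated exons. The sum over Acsm3, Acsm5 and Acsf2 was 13.9 ± 1.12 cpm per kilobase in WT and 13.8 ± 2.08 in cmGch1 KO (SD, n = 6 each). Within that sum Acsm5 held 12.4% in WT, from 10.1% to 14.6% by library, and 4.19% in cmGch1 KO, from 3.46% to 5.18%. Acsf2 held 87.4% and 95.7%. The log2 ratio of Acsm5 to Acsf2 in cpm was −2.68 ± 0.23 in WT and −4.38 ± 0.20 in cmGch1 KO, and the 2 ranges did not overlap. The shares and the ratio carry the same separation through which Acsm5 passed the filter. They are therefore not further support for a difference.

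The genes around Acsm5 were looked at after its values were seen. Within 500 kb on either side the annotation held 14 protein-coding genes, of which 4 were expressed highly enough to be tested. Besides Acsm5 these were Thumpd1, Dcun1d3 and Lyrm1, with log2 fold changes of 0.10, −0.09 and −0.25 and none at an unadjusted p under 0.05. The paralogues Acsm1, Acsm2 and Acsm4, which lie between Acsm5 and Acsm3, were at or below 0.0386 cpm on average in either genotype. Acsm5 shares 2.74% of its exon bases with Pdilt on the opposite strand, which had 0 to 3 counts per library.

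Chp1, Kpna4 and Tef had the pattern across libraries most like that of Acsm5 once the genotype means were removed. Over the 12 libraries, which share depth and composition with each other, Pearson's r with Acsm5 in log2 cpm was 0.885 for Chp1 (Spearman's rho 0.741), 0.882 for Kpna4 (rho 0.853) and 0.874 for Tef (rho 0.853). Without the 2 libraries farthest from the Acsm5 median, r was 0.791 for Chp1, 0.827 for Kpna4 and 0.843 for Tef. Chp1 encodes a calcineurin B-like protein, Kpna4 an importin α and Tef a transcription factor of the PAR bZIP family. Their own log2 fold changes were 0.06, −0.05 and −0.57, and none had an FDR under 0.05 (0.187 for Tef, the lowest). These 3 were the highest among all tested genes by this measure and describe a likeness only.

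The short-chain enzymes make acetyl-CoA and propionyl-CoA. Acss1, the mitochondrial acetyl-CoA synthetase, lies on chromosome 2 at 150618105 to 150668500 (minus strand). In WT its libraries held 347, 413, 392, 362, 426 and 430 cpm from replicate 1 to replicate 6, and in cmGch1 KO 283, 291, 316, 339, 362 and 375 cpm. Most cmGch1 KO values lay below the WT values, and replicates 5 and 6 fell within the WT range. Mean levels were 395 ± 34.4 cpm and 328 ± 37.5 cpm (SD, n = 6 each). The log2 fold change of −0.27 ± 0.09 SE had a 95% interval of −0.45 to −0.09 and an FDR of 0.19, so it did not pass after adjustment over all genes, while the two-sided exact permutation test of this gene alone gave p = 0.013. Without the high-Xist pair it was −0.21 (FDR 0.707). With 1 surrogate variable in the fit it was again −0.27, with a smaller SE of 0.04, and called (FDR 0.00113). That fit called 2.95% of all tested genes lower, against 0.445% in the main fit.

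Acss2, the acetyl-CoA synthetase of the cytosol and nucleus, lies on the same chromosome at 155517948 to 155585724 (plus strand). It held 31.3, 36.3 and 39.0 cpm as lowest, median and highest in WT and 28.0, 35.7 and 42.6 cpm in cmGch1 KO. The log2 fold change of 0.00 ± 0.09 SE had an interval of −0.20 to 0.20, which leaves differences of that size possible, and its sign changed with the setting. Acss3, a mitochondrial propionyl-CoA synthetase on chromosome 10 at 106933517 to 107123668 (minus strand), was below the filter with 17 to 52 counts per library. It held 0.776 to 1.42 cpm in WT and 0.777 to 1.44 cpm in cmGch1 KO, and the fit without a filter gave a log2 fold change of 0.23 ± 0.25 SE. Of its exon bases 33.9% are shared with Ppfia2 on the opposite strand, so the counts of Acss3 are uncertain.

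Among the long-chain enzymes, Acsl1 had the most counts of all 10. It lies on chromosome 8 at 46471037 to 46536051 (plus strand) and held 781, 888 and 1047 cpm as lowest, median and highest value in WT and 689, 790 and 934 cpm in cmGch1 KO. The groups overlapped over most of their ranges. The log2 fold change was −0.15 ± 0.09 SE (95% interval −0.33 to 0.04, FDR 0.581).

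Acsl6, a long-chain enzyme best known from the brain, where it handles polyunsaturated acids, lies on chromosome 11 at 54303798 to 54364756 (plus strand). Its WT libraries held 19.8, 21.8, 17.3, 18.3, 19.6 and 17.4 cpm from replicate 1 to replicate 6, and its cmGch1 KO libraries 17.5, 9.44, 9.55, 15.2, 17.3 and 16.1 cpm. The 2 high-Xist libraries were far below the rest, and the other 4 cmGch1 KO libraries lay at or just under the lower end of the WT range. Over all libraries the log2 fold change was −0.42 ± 0.15 SE with an FDR of 0.26. Without the high-Xist pair it was −0.20 ± 0.09 SE with an FDR of 0.622, and −0.22 once sex-linked expression entered the fit. The depth and the mitochondrial share of the pair differed in the same libraries, and their part in the Acsl6 values was not tested.

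Acsl5, found on mitochondria and the endoplasmic reticulum, lies on chromosome 19 at 55251938 to 55297720 (plus strand). It ranged from 18.9 to 22.2 cpm in WT and from 20.1 to 25.1 cpm in cmGch1 KO, with a log2 fold change of 0.13 ± 0.07 SE and an FDR of 0.508. Its highest values were those of the high-Xist libraries, 25.1 and 23.0 cpm. Acsl3, the synthetase of lipid droplets and the endoplasmic reticulum, lies on chromosome 1 at 78657825 to 78707743 (plus strand). It ranged from 6.94 to 9.36 cpm in WT and from 7.68 to 10.3 cpm in cmGch1 KO, with a log2 fold change of 0.09 ± 0.10 SE and an FDR of 0.82. Without the high-Xist pair the log2 fold changes were 0.09 for Acsl5 and 0.14 for Acsl3, neither called. Acss1 and Acsl6, with the dehydrogenase Acads described next, were among the genes that the study itself listed from these same libraries. Their direction here is therefore not independent evidence. The study drew that list from genes at an FDR under 0.05, whereas by edgeR here the FDR was 0.19, 0.26 and 0.207. It also reported less protein of a long-chain acyl-CoA synthetase and a short-chain acyl-CoA dehydrogenase, which these RNA counts do not measure.

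**Figure D3:**
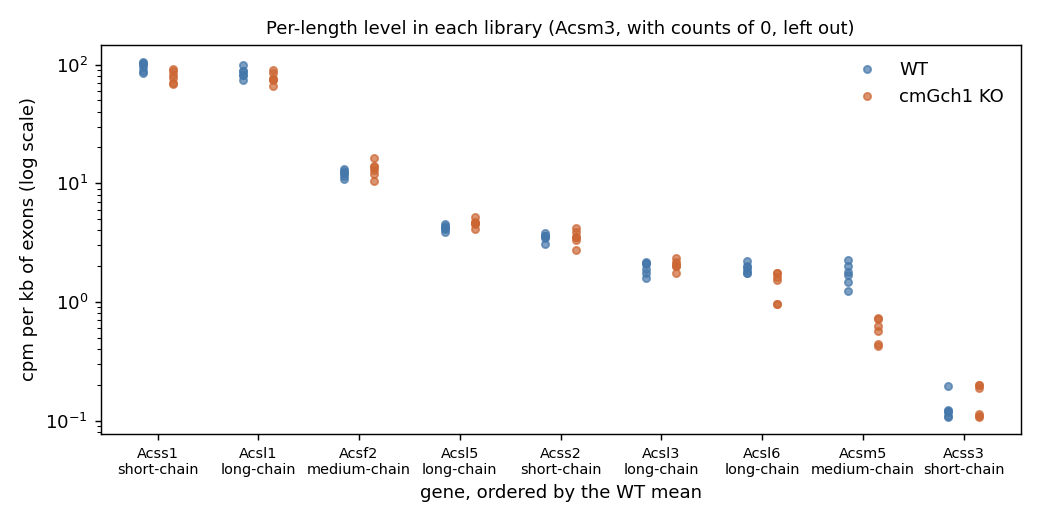
Level per length, in cpm per kilobase of annotated exons on a log axis (vertical), of 9 enzymes in each WT (blue) and cmGch1 KO (orange) library, ordered by the WT mean along the horizontal axis. Acss1 and Acsl1, at 95.7 and 85.6 in WT, lie far above the rest, and Acsm5 leaves the level of Acsl3 and Acsl6 in WT for a lower one in cmGch1 KO.

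Per length, the 10 genes spanned a wide range of levels. Acss1 at 95.7 ± 8.33 and Acsl1 at 85.6 ± 8.56 cpm per kilobase in WT overlapped in range, and their order turned when the longest transcript was taken as the length. Acsf2 followed at 12.1 ± 0.768, Acsl5 at 4.22 ± 0.233 and Acss2 at 3.51 ± 0.252, each below the range of the one before, and Acss2 moved above Acsl5 with the longest transcript as the length. Acsl3 at 1.94 ± 0.227, Acsl6 at 1.92 ± 0.171 and Acsm5 at 1.74 ± 0.367 overlapped with each other in WT. In cmGch1 KO Acsl3 was at 2.06 ± 0.20 and Acsl6 at 1.43 ± 0.375, while Acsm5 at 0.583 ± 0.129 lay below the range of either. Acss3 at 0.129 and Acsm3 at 0.0242 cpm per kilobase in WT were the lowest.

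Summed by class, the short-chain enzymes held 99.3 ± 8.22 cpm per kilobase in WT and 83.0 ± 9.30 in cmGch1 KO. The long-chain enzymes held 93.7 ± 8.43 and 85.4 ± 8.22. As shares of the sum over the 10, the short-chain class took 48.0% in WT and 45.5% in cmGch1 KO, the medium-chain class 6.71% and 7.60%, and the long-chain class 45.3% and 46.9%. The ranges over libraries overlapped for each class, so no class as a whole separated the genotypes. A single gene carried most of each sum in WT, with Acss1 at 96.3% of the short-chain class, Acsf2 at 87.4% of the medium-chain class and Acsl1 at 91.3% of the long-chain class.

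Other genes that make, use or release acyl-CoA were read from the same fit in lists. None of the 5 lists held a gene with an FDR under 0.05 in this fit. Over all tested genes 53.3% were lower, and 4.51% had an unadjusted p under 0.05 in that direction, the shares against which the counts below are read. Of the 8 tested genes among other acyl-CoA synthetases, 5 were lower and 3 higher, with a median log2 fold change of −0.12, and 3 of the 5 had an unadjusted p under 0.05. The list was broad and included the succinate-CoA ligase genes Suclg1, Suclg2 and Sucla2, which do not activate fatty acids and were all lower. The genes at an unadjusted p under 0.05 were Slc27a1, Suclg1 and Suclg2. Acsf3 was also lower, and Acsl4, Aacs and Slc27a4 were the 3 higher. The largest difference in that list was in Slc27a1, the fatty acid transporter with synthetase activity, which held 142 to 156 cpm in WT and 103 to 150 cpm in cmGch1 KO (log2 fold change −0.31 ± 0.09 SE, FDR 0.132). Acyl-CoA dehydrogenases take the next step of oxidation, and of 10 tested 8 were lower, 4 of them at an unadjusted p under 0.05, with a median of −0.12. By chain length the log2 fold changes were −0.32 ± 0.11 SE for the short-chain enzyme gene Acads, −0.21 ± 0.08 for the medium-chain Acadm, −0.13 ± 0.06 for the long-chain Acadl and −0.17 ± 0.07 for the very-long-chain Acadvl, with FDR between 0.207 and 0.484. The medium-chain dehydrogenase Acadm stood at 86.3% of WT. Among the medium-chain synthetases Acsm5 stood at 33.6% and the more abundant Acsf2 at 109.4%.

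Of the carnitine acyltransferases and carriers, which move acyl groups into mitochondria, 7 were tested, 5 were lower with 4 at an unadjusted p under 0.05, and the median was −0.19. Cpt1b had the largest difference there, −0.41 ± 0.30 SE (FDR 0.704), from an uncertain count since a read-through gene on the same strand spans its whole locus. All 9 tested acyl-CoA thioesterases, which release the free acid again, were lower, with a median of −0.07 and 2 at an unadjusted p under 0.05. Acot1, the cytosolic long-chain thioesterase, was at 14.9 to 27.1 cpm in WT and 8.34 to 16.7 cpm in cmGch1 KO (log2 fold change −0.73 ± 0.17 SE, FDR 0.0644). It has close paralogues among which reads could be split. Of 5 tested acyl-CoA binding proteins 1 was lower and 4 were higher, with a median of 0.03, none at an unadjusted p under 0.05 and the largest difference in Acbd4 (0.10). The Wald test of DESeq2, which called 1.38% of all genes lower, called 2 of the other synthetases, 0 dehydrogenases, 1 carnitine gene, 2 thioesterases and 0 binding proteins lower, and limma on the deposited values called none. By edgeR, Acot1 was called lower without a filter, with the replicate number as a block, and without WT replicate 6 or cmGch1 KO replicate 4. Slc27a1 was called without cmGch1 KO replicate 4, and Acads without cmGch1 KO replicate 1. With 1 surrogate variable, a fit that called 2.95% of all genes lower, the calls were Acot1, Acot7, Slc27a1, Suclg1, Acads, Cpt2 and Crat, of which Acot7, Suclg1, Cpt2 and Crat are named after their values were seen. Without the high-Xist pair, the unadjusted count of lower dehydrogenases went from 4 to 1, that of other synthetases from 3 to 1, and that of carnitine genes from 4 to 2, while the share over all genes went from 4.51% to 2.63%. With scaling by library size alone, 4 thioesterases were lower and 5 higher, with a median of 0.0001. In that setting the unadjusted lower counts were 1 dehydrogenase, 1 other synthetase, 0 carnitine genes and 2 thioesterases, beside 2.11% of all genes.

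**Figure D4:**
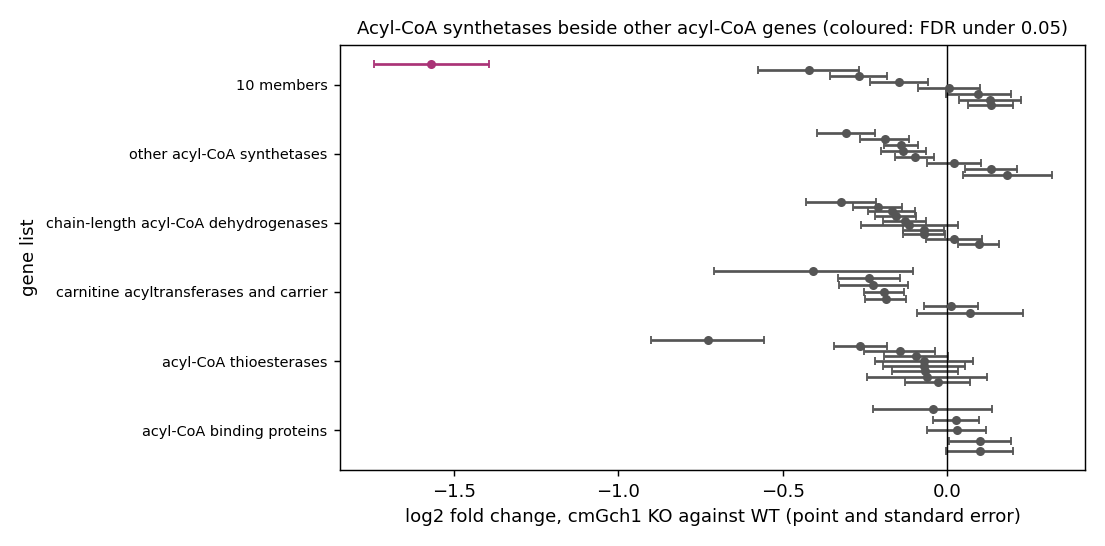
Genotype difference as log2 fold change, cmGch1 KO minus WT (horizontal axis, point and standard error), of the tested genes in the acyl-CoA synthetase group and the 5 other acyl-CoA lists (vertical axis), with colour for an FDR under 0.05. Acsm5 at −1.57 is the one coloured point, and the next largest difference is Acot1 at −0.73.

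The make-up of the tissue was followed with marker lists. In bulk tissue, fewer cells of a type and less RNA per cell cannot be told apart. The 11 cardiomyocyte markers, among them Myh6 and Tnnt2, were all detected and summed to 65110 to 68950 cpm in WT and 59120 to 63670 cpm in cmGch1 KO (two-sided exact permutation test, p = 0.00216). That p is the smallest the splits can give, and the sum is weighted to abundant genes, with Myh6 alone at a mean of 23050 cpm in WT. Of these genes 9 were lower, with a median log2 fold change of −0.16 and none at an unadjusted p under 0.05. Without the high-Xist pair 8 were lower and 3 higher, with a median of −0.12. Scaling by library size alone gave a median of −0.08. The 7 macrophage markers were all higher, with a median of 0.30 and all 7 at an unadjusted p under 0.05, beside 7.01% of all tested genes, and summed to 156 to 204 cpm in WT and 200.1 to 250 cpm in cmGch1 KO (exact permutation p = 0.00649). Without the high-Xist pair 3 of the 7 had an unadjusted p under 0.05, beside 4.50% of all tested genes, and the median was 0.25. Fibroblast markers summed to 796 to 1063 cpm in WT and 898 to 1109 cpm in cmGch1 KO, and all 7 were higher, with a median of 0.12 and 2 at an unadjusted p under 0.05 (1 without the pair, with a median of 0.17). All 5 tested blood cell markers were lower, with a median of −0.39 and none at an unadjusted p under 0.05. Endothelial, atrial, adipocyte, blood cell and nerve and glia sums overlapped between genotypes, and no marker was at 0 in every library. The part of these shifts in the values of Acsm5, Acss1 and Acsl6 was not tested.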

How the data were processed

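Left ventricular RNA of 12 mice was sequenced as dUTP-marked paired-end libraries, and the labels gave each sample its genotype and number. The authors made the deposited counts per gene with HISAT2 and featureCounts, and the submitters' processing notes also name SAMtools and GRCm38. The annotation and strand setting of the counting are not given in the sources used here. The authors also deposited normalized values on a log2-like scale, whose tool is not given in the sources used here. Of 26921 gene identifiers, 26582 were found in GENCODE M21.

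Counts were tested with edgeR 4.0.16 (R 4.3.3) by the quasi-likelihood test on genotype, with TMM scaling, a minimum of 3 cpm exceeded by 6 or more libraries, and Benjamini-Hochberg adjustment (FDR under 0.05) over all 11225 tested genes. Standard errors are those of the log2 fold change, and intervals are 95%. Single genes were also tested by two-sided exact permutation over 924 splits. Totals ran from 19921398 to 37917806 counts, and in 30 within-genotype pairs of libraries a chi-square of the counts, divided by its degrees of freedom, was at least 12.5, so none was a repeat of another. The fit was tested on simulated data. Alternatives used DESeq2 1.42.0, limma 3.58.1 and sva 3.50.0, other scalings, filters and covariates, and left out libraries in turn while keeping the tested genes. Sequences are from RefSeq (GRCm38.p6).

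The 10 members, the gene lists and the settings were chosen with earlier results of these data known. Genes named are the members, Gch1, the gene of each list with the largest absolute log2 fold change, Acads, Acadm, Acadl and Acadvl, the 3 genes most correlated with a called member, Xist and 4 Y-linked genes. Any other gene was named after its values were seen.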

Additional observations from a re-analysis of the deposited data

Results flagged for a closer look

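Within the 6 WT libraries, the Acss3 level of replicate 4 was 1.42 cpm while the other 5 lay between 0.776 and 0.889 cpm, a gap of 0.824 of the whole range that exceeds Dixon's 95% critical value for 6 samples. It rests on 51 counts, and the strand partner Ppfia2 shares exon bases with Acss3. In all, 22 groups of 6 values were examined, and chance marks about 1 in 20 such groups.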

How the results depend on the processing

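Acsm5 was lower and called in each of the 22 settings in which it could be tested, with a log2 fold change between −1.65 and −0.86, the latter from limma on the deposited log2-like values. Settings that left out libraries kept the genes tested in the full data. Acsm5 exceeded 3 cpm in 6 WT and 0 cmGch1 KO libraries, so without a WT library it would not have met the filter itself. The number of members called lower was 1 in most settings, 0 with a filter of cpm over 3 in every library, which removes Acsm5, and 2 with 1 surrogate variable, which adds Acss1 (−0.27, FDR 0.00113). No member was called higher in any setting run. Acss1 was lower in all 23 settings. Acsf2, Acsl1, Acsl3, Acsl5 and Acsl6 kept their sign in all 23 settings and were never called. The sign of Acss2 changed: −0.013 without a filter, −0.00019 with filterByExpr, −0.011 with limma, −0.0035 with the replicate block, −0.028 with the sex-linked covariate and −0.025 without the high-Xist pair, and −0.052 to 0.066 with single libraries left out.

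Of all tested genes, 50 were called lower and 76 higher. The lower count was 155 with the Wald test, 76 with the replicate block, 24 with the sex-linked covariate, 331 with the surrogate variable and 18 without the high-Xist pair, and it ranged from 30 (without WT replicate 3) to 97 (without cmGch1 KO replicate 1) on leaving out single libraries. It was 33 without WT replicate 5. The higher count was 116 with library size alone, 218 with the Wald test, 40 with the sex-linked covariate, 305 with the surrogate variable and 20 without the pair, and ranged from 45 to 116 on leaving out single libraries, with 47 without WT replicate 5 or cmGch1 KO replicate 3 and 50 without cmGch1 KO replicate 2. Scaling by library size alone moved the median log2 fold change of all genes from −0.01 to 0.07 and the lower share of calls from 39.7% to 23.7%, and the surrogate variable moved that share to 52.0%. The cause of these changes was not tested.

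The labels give both genotypes the numbers 1 to 6, and residuals of same-numbered libraries correlated between −0.13 and 0.68, not above 0.1 in every pair, so the number was not taken to pair the samples. As a hint from the data alone, 3 of 6 WT libraries correlated best with their own number. With this replicate block Acsm5 was the 1 member called.

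With the longest transcript as length, WT levels in cpm per kilobase were 109 for Acss1, 9.89 for Acss2, 0.198 for Acss3, 2.21 for Acsm5, 13.2 for Acsf2, 158 for Acsl1, 4.84 for Acsl5 and 3.28 for Acsl6. Depth limits Acsm3 and Acss3, which could not be compared.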
